A study of Mus musculus with 2 samples.

Results

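The mitotic genes described here are 32 mouse genes for entry into mitosis, chromosome segregation and cytokinesis. They were taken by gene symbol from the 55536 mouse genes of the deposited gene tables, and all 32 were found. The samples are 2 RNA-seq libraries of polyadenylated RNA from bone-marrow-derived macrophages, primary cells that were grown from the marrow of C57BL/6J mice. Both libraries belong to 1 group, given 100 ng/ml of a stimulus for 120 minutes. The labels disagree on what it was: one field gives lipid A, the membrane anchor of bacterial lipopolysaccharide, and others give a protein, lipoprotein A. The age of the mice was not recorded. The libraries are numbered as biological replicates 1 and 2 but share 1 donor entry. Nothing states that they came from separate animals, and the spread between them may be technical. No unstimulated library was analysed here, so the values are levels in stimulated cells and the one comparison is replicate 2 against replicate 1. With 1 library on each side there is no test of any gene, and no p-value is given.

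Mitosis begins when the kinase Cdk1, bound to B-type cyclins, becomes active, and it ends when the anaphase-promoting complex marks those cyclins and securin for destruction. Most genes for this programme are silent in resting cells and transcribed in G2 phase. The MuvB proteins hold them off as part of the DREAM complex and switch them on together with B-Myb and FoxM1, through a short promoter element called the cell cycle homology region (CHR), often next to CCAAT boxes bound by NF-Y. Macrophages in marrow culture divide in response to the growth factor Csf1, and lipopolysaccharide is known to halt that division.

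Promoter stretches are shown for Mki67 and for Cenpa, Mad2l1 and Cdk1, the most abundant other genes with an entry, and for Ccnb2, which was added after its value was seen because it lay furthest apart between the libraries. The windows come from RefSeq (GRCm38.p6), run 5′ to 3′ on the gene's own strand and reach from 250 bases before to 50 bases after the RefSeq transcript start. They exist for 28 of the 32 genes and not for Aurkb, Ccna2, Kif20a and Tpx2. Capitals mark the CHR letters TTTGAA and the CCAAT box, each on either strand, so that a box on the opposite strand reads ATTGG. The Mki67 stretch is chr7:135716380-135716529, minus strand, and the Ccnb2 stretch is chr9:70421555-70421704, minus strand. The Cdk1 stretch is chr10:69352939-69353088, minus strand, and the Mad2l1 stretch is chr6:66535071-66535220, plus strand. The Cenpa stretch is chr5:30666775-30666804, plus strand, and was kept to 30 bases because an annotated transcript of the gene starts within it.
Mki67: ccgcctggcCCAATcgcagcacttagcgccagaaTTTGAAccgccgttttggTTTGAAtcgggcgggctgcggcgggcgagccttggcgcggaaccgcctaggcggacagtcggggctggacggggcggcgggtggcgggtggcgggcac
Ccnb2: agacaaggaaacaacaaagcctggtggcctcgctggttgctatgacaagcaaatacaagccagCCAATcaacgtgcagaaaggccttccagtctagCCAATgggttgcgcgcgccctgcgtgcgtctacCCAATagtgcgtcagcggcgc
Cdk1: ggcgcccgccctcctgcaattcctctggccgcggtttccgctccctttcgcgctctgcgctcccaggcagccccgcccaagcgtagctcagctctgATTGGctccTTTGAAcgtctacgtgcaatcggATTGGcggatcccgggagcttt
Mad2l1: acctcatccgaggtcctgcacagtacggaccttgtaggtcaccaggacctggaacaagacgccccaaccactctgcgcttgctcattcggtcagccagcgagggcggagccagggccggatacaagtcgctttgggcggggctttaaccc
Cenpa: ccATTGGcttcagacctttattctcATTGG
In these stretches Mki67 holds 2 copies of the CHR letters 18 bases apart with a CCAAT box upstream of them, and Ccnb2 holds 3 CCAAT boxes spaced 33 and 33 bases. Cdk1 holds 2 boxes spaced 32 bases with CHR letters next to the first of them, and Cenpa holds 2 boxes spaced 23 bases. None of the letters searched occurs in the Mad2l1 window, whose RefSeq start lies 169 bases upstream of the start in the annotation of the count tables.

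The mitotic genes were present but most were low, and the libraries differed over most of them. In replicate 1, 29 of the 32 genes stood at 1 TPM or more (a level scaled to transcript length and to the library's total). In replicate 2 only 15 did, the same 15 that passed in both. Of all 55536 genes, 10832 in replicate 1 and 10574 in replicate 2 stood at 1 TPM or more. The median mitotic gene stood at 3.42 TPM in replicate 1 and 0.94 TPM in replicate 2. Just 5 genes, Cenpa, Mki67, Mad2l1, Cdk1 and Cks2, stood at 10 TPM or more in both libraries. None was at 0 counts in either library. The lowest was Cenpf, a kinetochore gene with a long transcript, at 0.39 and 0.04 TPM from 96 and 15 counts.

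**Figure D1:**
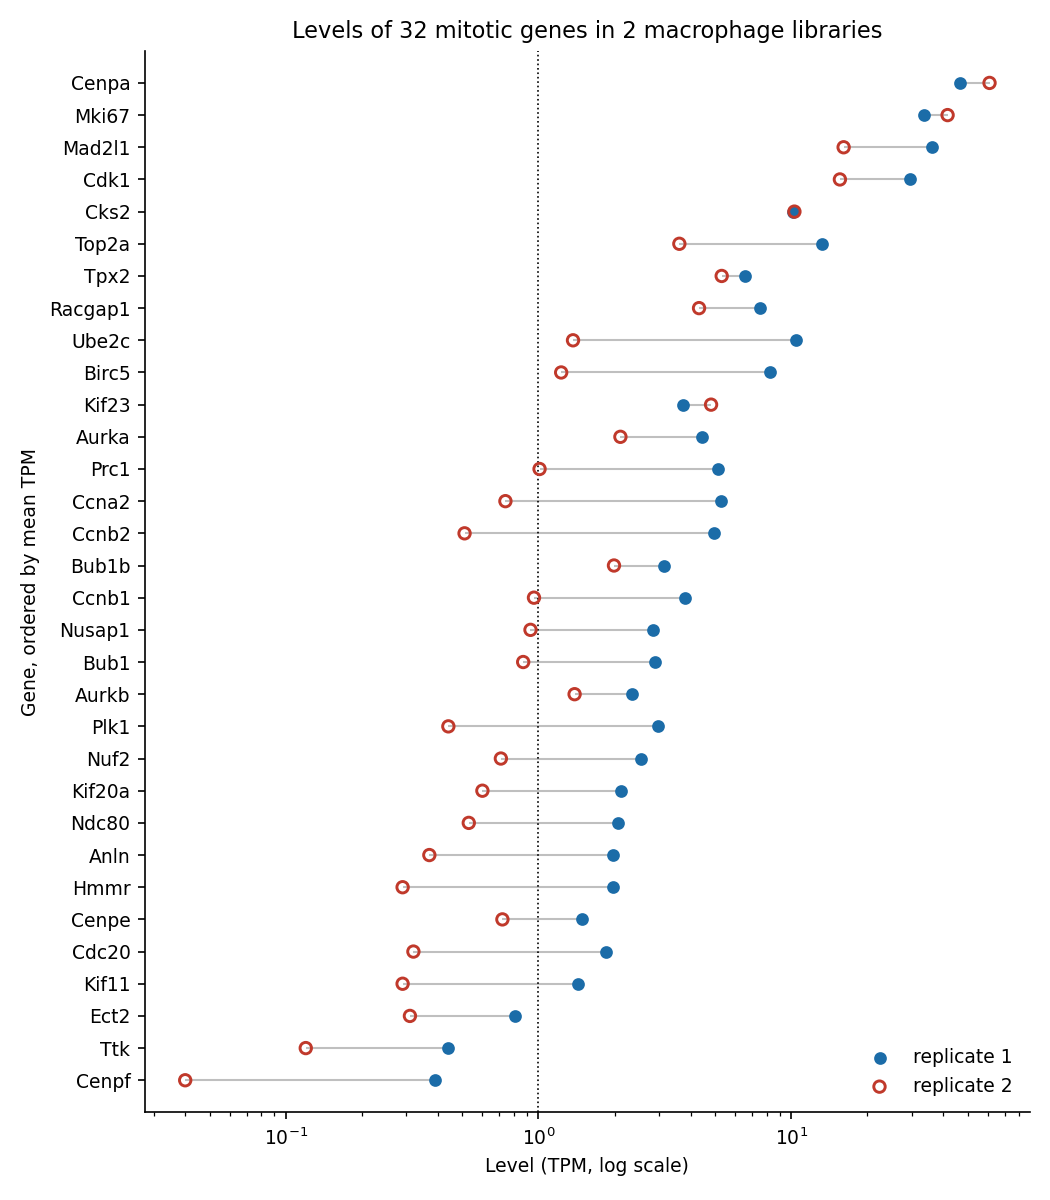
Level of each of the 32 mitotic genes in TPM (log axis) in replicate 1 (filled circles) and replicate 2 (open circles), ordered by mean level, with a dotted line at 1 TPM. Most open circles lie left of the filled ones and 17 of them lie below 1 TPM, while those of Cenpa, Mki67, Kif23 and, barely, Cks2 lie to the right.

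The ratio between the libraries was taken from CPM, counts scaled to library size with TMM factors (trimmed mean of M-values), and is written as log2 of replicate 2 over replicate 1. Of the 32 genes, 29 were lower in replicate 2 and 21 were lower by 2-fold or more, among them 11 lower by 4-fold or more. Among all 12684 genes that averaged at least 10 counts, 48.3% were lower and 4.82% were lower by 2-fold or more. The 3 genes higher in replicate 2 were Cenpa, Mki67 and Cks2, and none of them was higher by 2-fold, as 3.41% of those genes were. At an average of at least 50 counts, 30 mitotic genes were left, of which 27 were lower and 19 lower by 2-fold or more, against 46.5% and 2.14% of 10445 genes, with 1.85% higher by 2-fold or more. Their median log2 ratio was -1.69, beside 0.03 over all genes compared. The other 2, Cdc20 and Ttk, did not reach that count and had log2 ratios of -2.41 and -1.75. A filter on the mean count keeps some genes through their level in replicate 1 alone, so the counts over all 32 genes stand first. In bulk RNA, fewer dividing cells and less RNA of these genes per cell cannot be told apart.

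Each ratio also has a 95% counting interval (exact, from the binomial split of a gene's counts between the libraries), which covers counting error only. This interval lay below 0 for 29 genes, above 0 for Mki67 and Cenpa, and covered 0 for Cks2. For 18 genes the whole of it lay beyond 2-fold lower. Such intervals were taken for the mitotic genes alone, so no share over all genes can be set beside these counts. Across 12178 genes edgeR put the biological coefficient of variation between these libraries at 21.5%. Low counts widen the spread of ratios of any gene, so genes of like count are the closer background. Among 951 genes averaging 50 to 100 counts, the central 95% of log2 ratios reached down to -2.21, and 7 of the 13 mitotic genes in that class (Anln, Birc5, Ccnb2, Cenpf, Hmmr, Plk1 and Ube2c) lay lower still. From 100 to 200 counts the lower end was -1.23 and 6 of 9 mitotic genes lay below it, from 200 to 1000 it was -0.84 with 3 of 5 below (Bub1b, Cdk1 and Top2a), and from 1000 it was -0.56 with Mad2l1 below, 1 of 3. Neither Cdc20 nor Ttk lay below the -2.43 of the class from 10 to 50 counts. No mitotic gene lay above the upper end of its class.

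**Figure D2:**
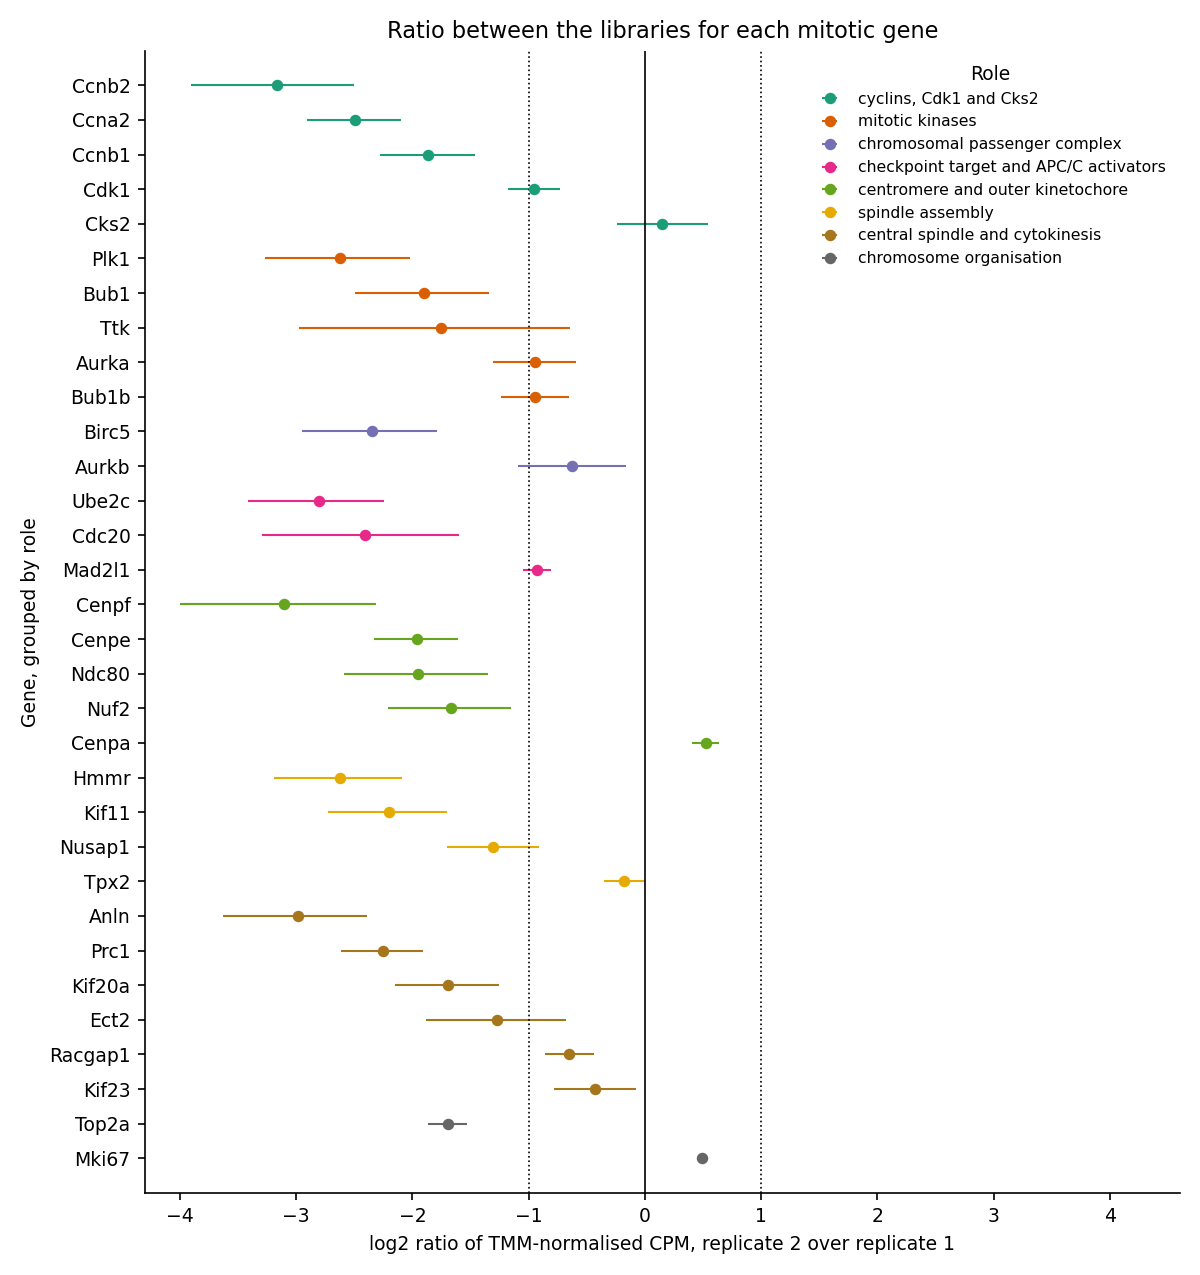
Log2 ratio of TMM-normalised CPM, replicate 2 over replicate 1, for each of the 32 mitotic genes grouped and coloured by role, with bars for the 95% counting interval and dotted lines at 2-fold. Points run from Ccnb2 at -3.17 to Cenpa at 0.52, and 29 of the 32 lie left of 0.

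Among the cyclins and their kinase, the B- and A-type cyclin genes were far lower in replicate 2 and the kinase gene less so. Ccnb2, which encodes cyclin B2 and lies on chromosome 9, 70407692 to 70421547 (mm10), had 140 counts in replicate 1 and 21 in replicate 2, at 4.97 and 0.51 TPM. Its log2 ratio of -3.17 (interval -3.90 to -2.50), or 8.98-fold lower, was the largest drop of the 32, and 0.0574% of all genes compared had a lower ratio. Ccnb1, for the cyclin that drives mitotic entry with Cdk1, stood at 3.80 and 0.96 TPM, a log2 ratio of -1.86. Ccna2, for the cyclin of S and G2 phases, stood at 5.28 and 0.74 TPM and had a ratio of -2.49. Cdk1 itself, on chromosome 10, 69335146 to 69352938, was the fourth most abundant mitotic gene in both libraries. Its levels were 29.6 and 15.6 TPM (22.6 ± 9.91, SD, n = 2) and its ratio -0.95 (interval -1.18 to -0.73), so it stayed short of 2-fold. Cks2, for a small subunit that binds cyclin-dependent kinases, was level, at 10.2 and 10.3 TPM with a ratio of 0.15 (interval -0.24 to 0.54).

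The 5 mitotic kinase genes were all lower in replicate 2. Plk1, for the polo-like kinase that acts from centrosome maturation to cytokinesis, had 128 and 28 counts and was 6.15-fold lower. Bub1, for a kinase of the spindle checkpoint at kinetochores, stood at 2.90 and 0.87 TPM, with a log2 ratio of -1.90. Ttk, for the kinase that starts checkpoint signalling, had 25 and 10 counts, and its interval (-2.97 to -0.64) was the widest of the 32. Aurka and Bub1b moved less. Aurka, for the kinase of the spindle poles, stood at 4.45 and 2.11 TPM. Bub1b, for the checkpoint protein BubR1, stood at 3.13 and 1.99 TPM, and both genes had a CPM ratio of -0.95. By TPM the log2 ratio of Bub1b was -0.65. Its transcript length was estimated at 3385 bases in replicate 1 and 2520 in replicate 2, and TPM divides by that length. In the chromosomal passenger complex, which corrects faulty attachments of chromosomes to the spindle, the subunits differed: the survivin gene Birc5 stood at 8.24 and 1.23 TPM (log2 ratio -2.35) and the kinase gene Aurkb at 2.35 and 1.39 TPM (-0.62, interval -1.09 to -0.16). These intervals did not overlap.

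The checkpoint protein Mad2 holds back Cdc20, the activator of the anaphase-promoting complex, and Ube2c is the enzyme that hands ubiquitin to that complex. Mad2l1, the gene for Mad2, on chromosome 6, 66535390 to 66547220, stood at 36.1 and 16.1 TPM from 1349 and 953 counts. Its log2 ratio of -0.93 had a narrow interval, -1.05 to -0.81. Cdc20 had 63 and 16 counts, at 1.85 and 0.32 TPM. Ube2c stood at 10.4 and 1.37 TPM and was 6.99-fold lower, so the gene of the inhibitor differed less between the libraries than those of its target and of the enzyme.

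At the centromere and kinetochore, Cenpa went the other way from the rest. Cenpa encodes the histone H3 variant that marks centromeres, lies on chromosome 5, 30666777 to 30674830, and was the most abundant mitotic gene in both libraries. Its level was 46.6 and 61.0 TPM (53.8 ± 10.1, SD, n = 2), from 923 and 1787 counts, a log2 ratio of 0.52 (interval 0.41 to 0.64). Ndc80 and Nuf2, partners in the complex that grips microtubules, were close to each other, with ratios of -1.95 (2.06 and 0.53 TPM) and -1.67 (2.55 and 0.71 TPM). Cenpe, for a kinesin that moves chromosomes to the spindle equator, had 252 and 87 counts and a ratio of -1.96. Cenpf was the second lowest of all 32 at -3.11 (interval -4.00 to -2.31).

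Spindle assembly genes were spread widely. Tpx2, which encodes the activator of the Aurora A kinase at the spindle, stood at 6.55 and 5.31 TPM with a log2 ratio of -0.18 (interval -0.35 to -0.00). Kif11, for the motor that pushes the poles apart, had 147 and 43 counts and a ratio of -2.20, and Nusap1, for a microtubule-bundling protein, had 154 and 84 counts and a ratio of -1.30. Hmmr, for a spindle protein that also binds hyaluronan, had 160 and 35 counts in the gene table, a ratio of -2.62, but 269 and 244 counts and a ratio of -0.60 in the second quantification of the same libraries. Its size is therefore uncertain by more than its interval, which ran from -3.19 to -2.09.

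Genes of the central spindle and of cytokinesis were all lower in replicate 2 by CPM. Anln, for the furrow protein anillin, had 159 and 27 counts and was 7.93-fold lower. Prc1, for the protein that cross-links the midzone microtubules, stood at 5.14 and 1.01 TPM (log2 ratio -2.26), and Kif20a, for the kinesin that brings Aurora B there, at 2.13 and 0.60 TPM (-1.69). Ect2, for the activator of the GTPase RhoA at the furrow, had 68 and 38 counts and a ratio of -1.27. Racgap1 and Kif23 encode the partners of the centralspindlin complex and were nearer to level, with ratios of -0.65 (interval -0.86 to -0.44) and -0.43 (interval -0.78 to -0.08). Kif23 had 136 counts in both libraries but 3.72 and 4.82 TPM, the opposite direction, because TPM divides by a transcript length that was estimated at 1620 bases in replicate 1 and 849 in replicate 2.

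Mki67 and Top2a, both genes for proteins of mitotic chromosomes and both widely used as proliferation markers, parted. Top2a encodes the topoisomerase that untangles sister chromatids and lies on chromosome 11, 98992943 to 99024189. It had 1015 and 422 counts, at 13.3 and 3.61 TPM, a log2 ratio of -1.70 (interval -1.86 to -1.53). Mki67 encodes Ki-67, which coats mitotic chromosomes, and lies on chromosome 7, 135689784 to 135716361. It had 6975 and 13167 counts, at 33.6 and 41.6 TPM, a ratio of 0.49 (interval 0.45 to 0.53), and 89.4% of all genes compared had a lower ratio. The interval of Mki67 overlapped with that of no mitotic gene apart from Cks2 and Cenpa.

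Against the rest of the mitotic genes, Mki67 stood 2.18 log2 units above the median ratio of the other 29 that averaged at least 50 counts. Mki67 was 2.53 times as abundant as Top2a in TPM in replicate 1 and 11.5 times in replicate 2. Over Ccnb2 it was 6.76 and 81.5 times as abundant, and over the median of the other 31 genes 10.7 and 44.7 times. Since its transcript is long and abundant, Mki67 took 46.0% (exact Clopper-Pearson interval 45.2 to 46.8) of all counts on the 32 genes in replicate 1 and 69.2% (68.5 to 69.8) in replicate 2. Summed over the 32 genes the level was 261 TPM in replicate 1 and 180 TPM in replicate 2. Without Mki67 and Cenpa the sums were 181 and 77.9 TPM. Across the 32 genes the ratio was higher for genes of higher mean TPM (Spearman rho 0.55, Pearson r 0.63, n = 32 genes that share both libraries), and with transcript length it had a rho of -0.12. Over all genes the median log2 ratio also rose with mean count, from -0.15 at 10 to 50 counts to 0.10 at 1000 or more.

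The order of levels, taken from TPM, also differed between the libraries. Cenpa, Mki67, Mad2l1 and Cdk1 held the first 4 places in both libraries. Ube2c went from place 6 in replicate 1 to 13 in replicate 2, Ccnb2 from 13 to 24 and Ccna2 from 11 to 19. Kif23 went from 16 to 7 and Aurkb from 22 to 12. The place of Kif23 in replicate 2 also reflects the shorter transcript length estimated there.

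Most genes had the same ratio in the second quantification, which was made from the reads without the alignment behind the gene table. In it 29 of 32 genes were lower in replicate 2 and 20 were lower by 2-fold or more, all of them among the 21 of the gene table. At an average of at least 50 counts in it, 27 of 30 were lower and 18 by 2-fold or more. Of all 10889 genes at that average, 46.3% were lower and 2.19% by 2-fold or more. For 26 of the 32 genes the log2 ratios of both quantifications lay within 0.25 of each other. Across the 32 genes, which share both libraries, the ratios had a Pearson r of 0.93, or 0.985 without Hmmr. Mki67 had 7511 and 14473 counts there and a ratio of 0.49, Cenpa a ratio of 0.51 and Ccnb2 one of -3.18. Kif23 differed in level: it stood at 16.5 and 16.1 TPM, with 81.2% of that in each library assigned to Kif23-202, a transcript without a coding sequence that has 0 counts in the first transcript table.

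**Figure D3:**
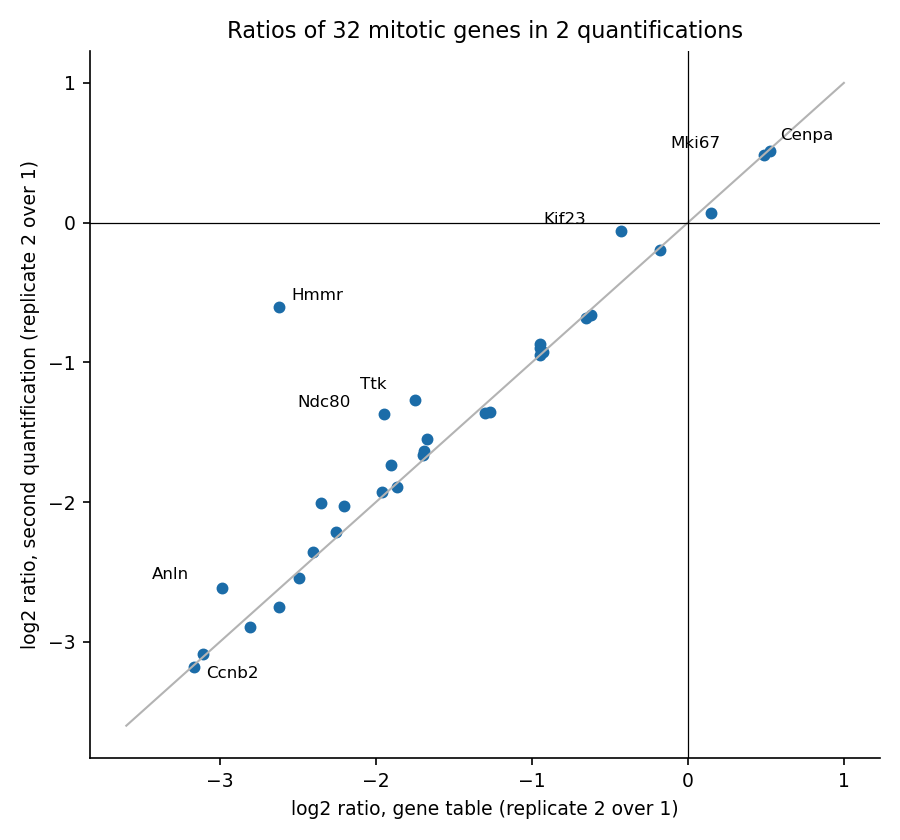
Log2 ratio of replicate 2 over replicate 1 from the gene table (horizontal) against the second quantification (vertical) for the 32 mitotic genes, with the line of equality. Hmmr, at -2.62 and -0.60, lies furthest from the line, and Mki67 and Cenpa sit together at the upper right.

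The leading transcript was not always a coding one. Mki67-201, a coding transcript, held 93.9% and 97.3% of the gene's TPM. Of Cenpa's TPM, 66.8% and 63.2% went to Cenpa-202, annotated as subject to nonsense-mediated decay, and 29.9% and 31.7% to the coding Cenpa-205, which stood at 13.9 and 19.3 TPM and was thus also higher in replicate 2. Cdk1-204, a retained intron, took 41.0% and 56.2% of Cdk1's TPM and the coding Cdk1-202 took 40.8% and 34.8%. Mad2l1 was split between the coding Mad2l1-201 (53.4% and 52.2%) and the retained intron Mad2l1-203 (42.6% and 41.7%). With coding transcripts alone the ratios were -1.10 for Cdk1, -0.87 for Mad2l1, 0.59 for Cenpa and 0.48 for Mki67. Whether the counting used strand is not given in the sources used here, and exons of 8 mitotic genes overlap those of another gene: Ccna2, Cdc20, Kif20a, Nusap1, Plk1, Prc1, Top2a and Ube2c. If it did not, reads in the shared exons cannot be told apart from those of a partner on the other strand. Such partners were Exosc9 for Ccna2, Rccd1 for Prc1, Cdc23 for Kif20a, Oip5 for Nusap1 and Elovl1 for Cdc20. Elovl1 shares 53 exon bases with Cdc20 and had 3342 and 4220 counts, against 63 and 16 for Cdc20. The partners of Plk1, Top2a and Ube2c had 0 counts in both libraries. By the deposited estimates of uncertainty 6 genes shared reads with other sequences. Of the 20 genes at that average of at least 50 counts and with neither condition, 18 were lower in replicate 2, 11 of them by 2-fold or more.

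The remaining genes of the cell cycle were described with lists chosen by function, over the members that averaged at least 50 counts, and those below that average are given separately. A list of 50 other G2/M genes went mostly the same way: of 22 at that average, 21 were lower in replicate 2, 12 by 2-fold or more, and the median log2 ratio was -1.09. Of the 28 below it, 27 were lower, 25 by 2-fold or more. For low genes of this and the later lists the background differs. Of all 8854 genes with counts below that average, 4741 were lower, 2790 by 2-fold or more. In the G2/M list the kinase gene Pbk was furthest apart, with 89 and 16 counts (-2.90). Cks1b (-1.04), Tacc3 (-0.79) and Incenp (-0.05), the scaffold gene of the passenger complex, were among its 4 most abundant. The exception among the 22 was Pttg1, the gene for securin, which guards the cohesin that ties sister chromatids. It stood at 57.3 and 78.7 TPM with a ratio of 0.49, close to Mki67 and Cenpa. Genes of DNA replication and the G1/S transition were lower in 25 of 30 cases, 12 by 2-fold or more, with a median of -0.72, and the 5 below that average were lower as well. Among them the ribonucleotide reductase gene Rrm2 had 227 and 36 counts (-3.09), while the clamp gene Pcna was level at 292 and 276 TPM (0.05) and the licensing factor gene Cdt1 stood at 0.26.

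Lists of other chromosome genes had medians nearer to that of all genes, but some of their members were far lower in replicate 2. Of 17 condensin and cohesin genes 9 were lower and 3 (17.6%) were lower by 2-fold or more, against 2.14% of all genes compared, with a median of -0.16. Those 3 were the condensin genes Ncapg (-2.50), Ncapd2 (-1.41) and Smc2 (-1.23), and the cohesin gene Rad21 stood at 0.30. Of 15 core subunit genes of the anaphase-promoting complex 8 were lower and none by 2-fold, with a median of -0.03. The most abundant, Anapc5, stood at 60.7 and 65.9 TPM, and Anapc7 was furthest at -0.60, unlike Ube2c and Cdc20, which work with the same complex. Constitutive centromere genes had a median of -0.06 over the 10 at that average, with 7 lower, 1 of them, Cenpi (-1.22), by 2-fold or more. Of the 8 below it 7 were lower, and 4 of these (Cenpq, Cenph, Cenpn and Cenpk) were lower by 2-fold or more. Regulators of these promoters, from DREAM, MuvB and FoxM1 to NF-Y, had a median of 0.01 with 8 of 16 lower. Of these 16 only Foxm1, with 138 and 54 counts and a ratio of -1.78, was lower by 2-fold or more. The other 2 regulators were below that average and were also lower by 2-fold or more: Mybl2, the gene for B-Myb, had 56 and 21 counts (-1.84), and Mybl1 had 30 and 10 (-2.01).

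**Figure D4:**
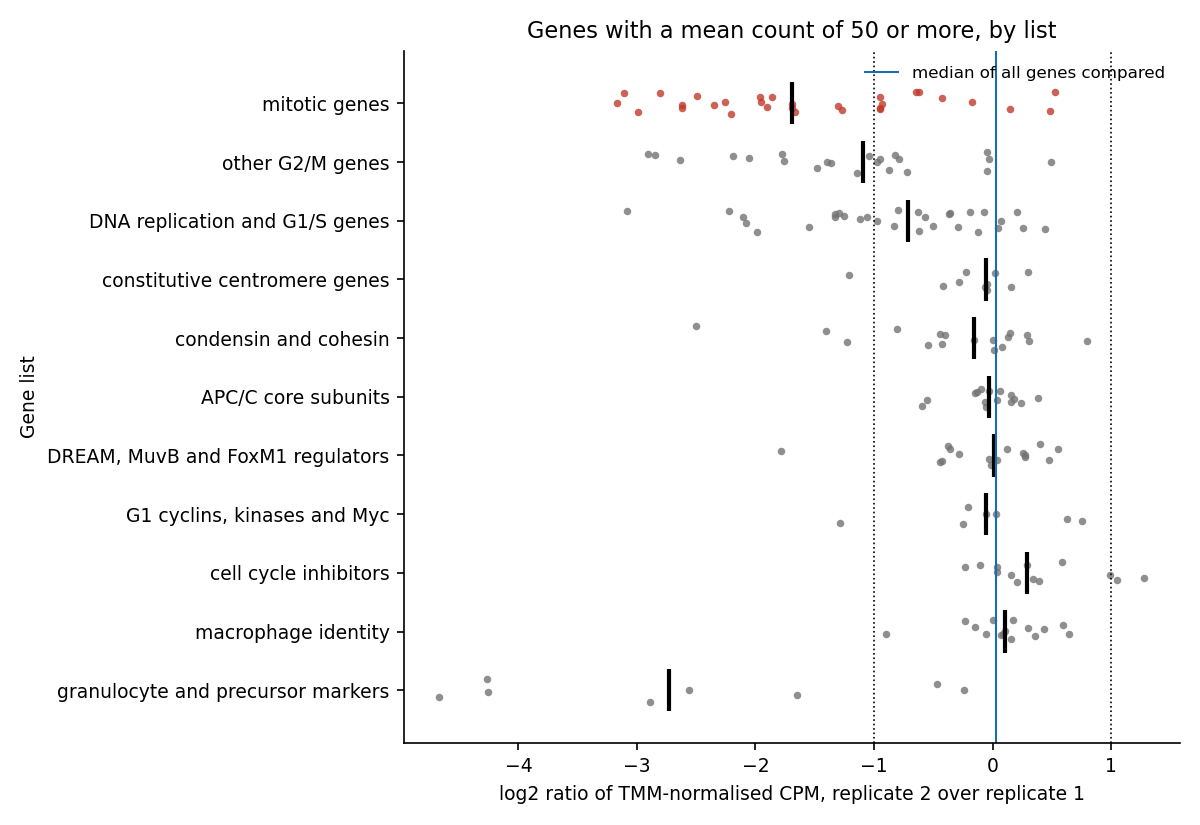
Log2 ratio of TMM-normalised CPM, replicate 2 over replicate 1, for each gene averaging at least 50 counts in 11 lists, with a bar at each list's median, a blue line at the median of all genes compared and dotted lines at 2-fold. The mitotic genes (red) have a median of -1.69, other G2/M genes -1.09 and granulocyte markers -2.73, while macrophage identity genes lie around 0.11.

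Markers of granulocytes and of megakaryocytes were lower in replicate 2, as most mitotic genes were. Erythroid, lymphocyte and progenitor markers were mostly lower as well, largely from few counts, and monocyte and stromal markers were mixed. The 18 granulocyte and precursor markers summed to 615 TPM in replicate 1 and 120 TPM in replicate 2, with 12 and 7 of them at 1 TPM or more. All 8 that averaged at least 50 counts were lower in replicate 2, 6 by 2-fold or more, with a median log2 ratio of -2.73, and so were the 10 below that average. S100a9, a calprotectin subunit gene, stood at 266 and 41.2 TPM, and Ly6g had 4 and 0 counts. The 6 megakaryocyte and platelet markers summed to 933 and 238 TPM, nearly all from Pf4, and Gp9 had 8 and 0 counts. The 10 markers of progenitors summed to only 2.86 and 3.25 TPM, with Hoxa9 and Mycn at 0 counts in both libraries. Among them Kit, at 57 and 373 counts, was higher in replicate 2, while of the 7 others with counts 6 were lower, such as Gata2 with 20 and 5 and Flt3 with 41 and 11. Monocyte markers summed to 198 and 285 TPM, with 3 of 5 lower in replicate 2. Erythroid markers summed to 6.70 and 2.83 TPM, lymphocyte markers to 3.55 and 1.68 TPM and stromal markers to 2.74 and 2.45 TPM. The 2 erythroid markers at that average were lower, as were 4 of the 5 others with counts. All 10 lymphocyte markers were below that average, and 9 were lower, 7 by 2-fold or more. Of the stromal markers the 2 at that average were lower, as were 3 of the 6 below it. Of 16 macrophage identity genes 15 stood at 1 TPM or more in both libraries, led by the lysozyme gene Lyz2 at 13518 and 19283 TPM, and their median log2 ratio was 0.11. The libraries also differed in depth, with 33319563 and 50334059 total counts, and in the share of TPM on nuclear rRNA genes, at 6.82% and 10.5%. The part of these other cells, of depth and of rRNA in the ratios of the mitotic genes was not tested.

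The promoter elements were common among the mitotic genes, whichever way the gene moved. The letters TTTGAA, searched on both strands of the 300-base windows, occurred in 20 of the 28 mitotic genes with an entry (71.4%), against 20.2% of 27025 genes. CCAAT, also on both strands, occurred in 22 (78.6%, against 41.1%), and both together in 18 (64.3%, against 8.97%). The variant TTTAAA, which reads the same on both strands, occurred in 8 (28.6%, against 14.9%). None of these strings contains another, though CCAAT and TTTGAA can share a base where they meet. Of other G2/M genes 65.9% held TTTGAA, of condensin and cohesin genes 46.2%, of DREAM, MuvB and FoxM1 regulators 33.3%, of constitutive centromere genes 23.5%, of core subunit genes of the anaphase-promoting complex 14.3% and of genes of DNA replication and the G1/S transition 13.3%. CCAAT was also common in other lists, at 80.0% of cell cycle inhibitor genes and 70.6% of constitutive centromere genes. The 20 genes with TTTGAA had a median log2 ratio of -1.85 and the 8 without it -1.77, and both ranges reached from below -2 to above 0. Ccnb2, with the lowest ratio, and Cenpa and Mki67, with the highest, all held TTTGAA and CCAAT, as the sequences above show in part. In 19 of the 20 genes a TTTGAA lay within 50 bases of the transcript start, and the exception was Mki67, where it began 116 and 98 bases upstream. A match of letters is a description of the sequence and does not show that a factor binds there.

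**Figure D5:**
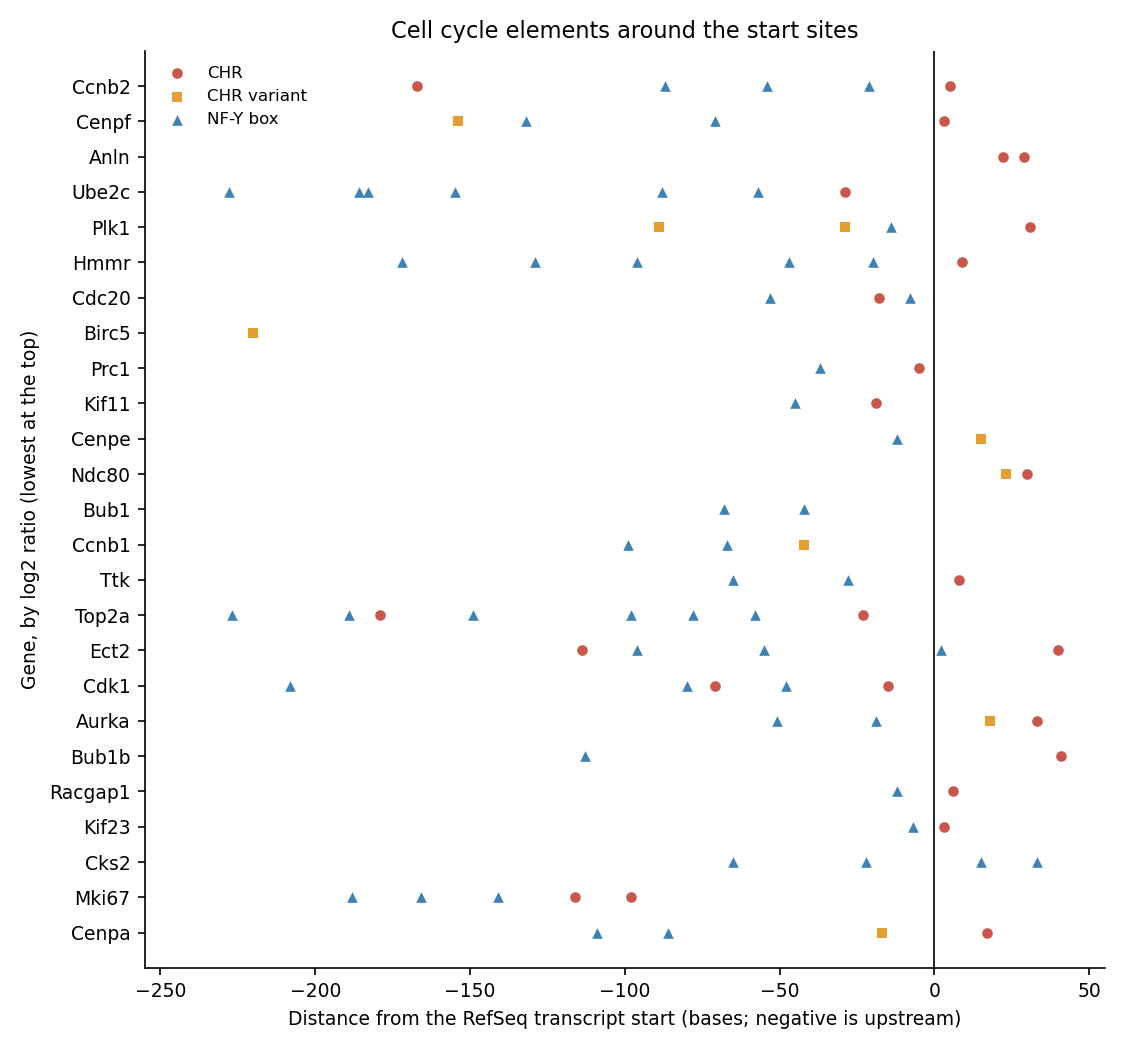
Positions of TTTGAA (CHR, circles), TTTAAA (CHR variant, squares) and CCAAT (NF-Y box, triangles) by distance in bases from the RefSeq transcript start, for the mitotic genes with at least 1 match, ordered by log2 ratio with the lowest at the top. Circles gather around the start and triangles mostly upstream of it from top to bottom, and the Mki67 circles lie at -116 and -98.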

How the data were processed

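Polyadenylated RNA of 2 libraries of 1 group was measured, and groups and replicate numbers came from the labels. The deposited gene table and first transcript table have RSEM's column names and give expected counts and TPM, per the file headers. The latter also gives each transcript's percent of its gene's TPM, per the file headers. The deposited second transcript table has kallisto's column names and gives estimated counts with TPM. According to the deposited descriptions the assembly was mm10 with GENCODE annotation M21. No program version, and no strand setting, is given in the sources used here.

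Expected counts were rounded, and posterior SDs above 0 in the deposited gene table were read as shared reads. Ratios used TMM factors from edgeR 4.0.16 (R 4.3.3), computed without a count minimum. Shares over all genes compared took genes that averaged at least 50 counts, unless another minimum is stated. A floor of 3 counts was 0.0902 and 0.0597 CPM. Intervals are exact binomial intervals at 95%, and cover counting error alone, as reads that carry no molecular identifier are not independent molecules. The rest was done in Python 3.11.15 with pandas 2.3.3, numpy 2.4.6, matplotlib 3.10.9 and scipy 1.17.1.

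The members, lists, promoter letters and alternatives were chosen with earlier results of these data known. All 32 members are named. In other lists the text names genes among the 4 with the highest mean TPM, the gene with the largest absolute log2 ratio, and, chosen after their values were seen, markers at 0 counts, progenitor markers, Ccnd3, Ncapd2, Smc2 and genes below the count minimum. Alternatives were DESeq2 1.42.0 size factors, total counts, other scales and count minimums, TPM without mitochondrial and nuclear rRNA genes, the second quantification and each library by itself. Coding transcripts alone and genes without overlap or shared reads were added after seeing the data.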

Additional observations from a re-analysis of the deposited data

How the results depend on the processing

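Over 192 recomputed ratios of single mitotic genes, 156 moved by less than the spread between the libraries, 36 moved further and none past 2-fold changed sign. DESeq2 size factors and total counts shift every gene alike, by less than that spread, so those ratios could not move further. Across scalings (DESeq2 size factors, total counts, TPM + 1, TPM + 0.1) and the second quantification, 26 to 28 of the 30 genes were lower in replicate 2. By 2-fold or more, 14 to 23 were lower. Over all genes compared, 45.2% to 65.6% were lower and 1.57% to 3.56% were lower by 2-fold or more. By total counts the median of all genes moved to -0.14, with 65.6% of genes lower, and that of the mitotic genes to -1.86. On the TPM + 1 scale, which shrinks the ratios of low genes, the median was -0.98 and Mki67 stood 1.29 above the median of the others.

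A mean count of 200 or more left 8 mitotic genes, of which 6 were lower, 1 by 2-fold or more (43.4% and 0.875% of all 8342 genes), with a median of -0.79 and Mki67 1.42 above the median of the others. Leaving out genes with exon overlap or shared reads left 11 lower by 2-fold or more, since fewer genes were counted. The count of genes at 1 TPM or more was 14 in the second quantification, 15 without replicate 1 and 29 without replicate 2. The median TPM ranged from 0.94 to 3.42. The count of genes was 6 at 5 TPM and 24 at 0.5 TPM, and 18 when mitochondrial and nuclear rRNA genes were left out of TPM. Depth limits the low genes most: 3 counts are 0.0902 CPM in replicate 1 and 0.0597 CPM in replicate 2, and Ttk rested on 25 and 10 counts.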

Other observations

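Most genes that hold the cell cycle back were level or higher in replicate 2. Cdkn1a, for the inhibitor p21, stood at 1313 and 1232 TPM with a log2 ratio of 0.03, above every mitotic gene in both libraries. Of 13 inhibitor genes that averaged at least 50 counts, 11 were higher in replicate 2, 2 of them by 2-fold or more, and the median was 0.29. Of all 10445 genes at that average, 5587 were higher, 193 (1.85%) by 2-fold or more, and the median was 0.03. Of the 3 inhibitor genes below that average, E2f7 (18 and 7 counts) and Cdkn2a (6 and 3 counts) were lower and Cdkn2b (23 and 54 counts) was higher. Cdkn1c, for the inhibitor p57, was furthest at 31.7 and 73.3 TPM (1.28). The stress gene Gadd45b was level at 461 and 434 TPM (0.04).

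In a list of D-type cyclins, G1 kinases and Myc, 4 of 7 genes were lower in replicate 2, with a median of -0.06. The D-type cyclin genes differed: Ccnd1 stood at 28.7 and 10.9 TPM (log2 ratio -1.29), Ccnd2 at 20.2 and 28.5 TPM (0.75) and Ccnd3 at 12.0 and 12.9 TPM (0.03). The kinase genes Cdk4 and Cdk6 had ratios of -0.25 and -0.06.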
